A study of Homo sapiens with 4 samples.

Results

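These regions are GATA2 ChIP-seq peaks of K562 cells that lay away from promoters and held an AP-1 core beside a GATA string. A peak was taken when its midpoint was 1 to 100 kb from the nearest protein-coding transcription start site (TSS) and its hg38 sequence held an AP-1 core, TGACTCA or TGAGTCA, together with a GATA string, AGATAA or AGATAG with T also taken as the first letter, on either strand. Peaks with a GATA:E-box composite (CTG followed by GATAA after 8 or 9 bases) or with a run of 4 or more GATA units were dropped. The rule used positions and sequence only. It left 2378 of 31777 peaks in the asynchronous list (7.48%) and 107 of 1648 in the mitotic list (6.49%). Of the 24408 asynchronous peaks at 1 to 100 kb, 2974 held both strings, and 596 of these were dropped, 579 with a composite and 18 with a repeat (1 had both). In the mitotic list 139 of 1257 such peaks held both strings, and 32 were dropped, all with a composite.

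GATA2 was mapped by ChIP-seq, which sequences the DNA pulled down with an antibody, in K562, an established human chronic myeloid leukaemia line that expresses its own GATA2. There was 1 GATA2 library from asynchronous cells and 1 from cells arrested in mitosis with nocodazole and sorted for MPM-2, a mitotic phospho-epitope, in several rounds that were then pooled, with under 10% asynchronous cells left. Both were fixed with disuccinimidyl glutarate and formaldehyde, and both used the same GATA2 antibody. Neither condition had a replicate, the input libraries were not used here, and the depth of each library is unknown because the lists hold only positions, so no test between the conditions was made. An asynchronous peak that shared at least 1 base with a mitotic peak is called bookmarked here, a term for a factor that stays on a site through mitosis. All intervals are at 95% and cover counting error over peaks only. A site absent from the mitotic list is one where no peak was called, which at an unknown depth is not a site shown to be free of GATA2.

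AP-1 is a family of dimers of FOS, JUN and related basic leucine zipper proteins that bind the palindromic core. NF-E2, a dimer of NFE2 and a small MAF protein found in erythroid cells and megakaryocytes, and its relatives NRF2 and BACH1 bind the same core when it is preceded by TGC, and GATA factors bind the GATA string, often in the same enhancers. A peak with the core can therefore be a site of any of these proteins, and none of them but GATA2 was measured.

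The first sequences shown are regions where the arrangement is best known, in the beta-globin locus control region, followed by a region with a short gap. All are hg38, plus strand, with whole matches to the AP-1 core and to the GATA string in capitals. They were picked after their values were seen, and all are asynchronous peaks that were not bookmarked.
HBE1, chr11:5280743-5280779: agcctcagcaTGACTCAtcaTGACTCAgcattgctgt
HBE1, chr11:5284901-5284927: ttgtgtttgcTGAGTCAaaattccttg
TXNRD1, chr12:104220151-104220190: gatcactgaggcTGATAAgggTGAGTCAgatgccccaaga

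The globin sequences carried paired or extended cores. The peak at chr11:5280543-5280923 lay 10788 bp upstream of HBE1, the gene of embryonic epsilon-globin, and held 2 AP-1 cores separated by 3 bases. The peak at chr11:5284565-5285151 lay 14913 bp upstream of the same gene and held 1 core, preceded by TGC, with 4 GATA matches. TXNRD1, the gene of thioredoxin reductase, had 2 regions, both in intron 1, and the one shown has a gap of 3 bp.

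The next set shows 4 of the 6 mitotic peaks with a gap of at most 3 bp between the strings, with the widest taken of the 3 tied at 3 bp. All 6 overlapped an asynchronous peak, as did 106 of the 107 mitotic regions. The gap is the number of bases between the AP-1 core and the nearest GATA match.
CCND3, chr6:42017374-42017410: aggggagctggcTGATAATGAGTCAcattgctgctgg
WDR75, chr2:189506789-189506826: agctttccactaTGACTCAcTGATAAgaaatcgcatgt
C4orf45, chr4:159047566-159047604: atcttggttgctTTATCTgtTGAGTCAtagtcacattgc
DNAJC16, chr1:15543690-15543729: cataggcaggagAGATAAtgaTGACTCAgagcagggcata

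In these peaks the strings abutted at CCND3 and were 1, 2 and 3 bp apart at WDR75, C4orf45 and DNAJC16. The CCND3 peak, 309 bp wide, lay in an intron of the gene of cyclin D3 and 31218 bp downstream of the nearest TSS. The DNAJC16 peak was in intron 4 of its gene, and the other two were intergenic. The order of the strings and the strand of the GATA match varied among the 4.

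Distal GATA2 peaks held the AP-1 core more often than the DNA around them. Of the 17666 asynchronous distal peaks with a GATA string, no composite and no repeat, 13.5% (13.0 to 14.0) held the core, against 6.57% (6.32 to 6.84) of 35332 windows of the same widths placed 5 kb to either side, a ratio of 2.05. The core letters preceded by TGC (TGCTGACTCA or TGCTGAGTCA, the NF-E2-type extended string) were in 1.25% of these peaks and 0.277% of the windows, a ratio of 4.51. For the other strings searched the ratio was 2.53 for the PU.1 string GAGGAAGT, above that of the AP-1 core, 1.94 for the RUNX string AACCACA, 1.80 for the ETS string AGGAAGT and 1.56 for the E-box CAGCTG. Peaks with a composite, whose CTG can belong to an E-box, were dropped, and no window was. The E-box ratio is thus not on the same footing as the others. All ratios also set peaks that had to hold a GATA string against windows that did not have to, of which 51.4% held one. The ratio was 1.48 for the CRE string TGACGTCA and 1.20 for the TEAD string GGAATG. The CRE string was in only 40 peaks and 54 windows, and the intervals of its shares overlapped (0.162 to 0.308% and 0.115 to 0.199%). The erythroid KLF string CCACACCC was less frequent in the peaks (3.94%, 3.66 to 4.24) than in the windows (4.52%, 4.30 to 4.74), a ratio of 0.872. The mitotic list gave nearly the same share with the core, 13.1% (10.8 to 15.6) of 818 distal GATA peaks. The shares of peaks with the AP-1 core in both lists thus differed by less than their counting error, and most mitotic peaks lie on asynchronous ones, so the lists are not independent. The shares are also not at equal width. Median widths with and without the core were 351 and 288 bp in the mitotic list, against 437.5 and 367 bp in the asynchronous list.

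The core was densest at the peak midpoint, where it reached 0.465 matches per kb (0.434 to 0.498) within 50 bp of the midpoint of asynchronous distal GATA peaks. Between 750 and 1000 bp away the density was 0.172 per kb, so the centre was 2.70 times as dense. GATA strings, which the rule required in the peak, rose more steeply, 4.62 times, and the extended string 5.77 times. Around mitotic distal GATA peaks the core was at 0.465 per kb in the centre (0.329 to 0.638), 2.88 times its outer density. Within the asynchronous regions the core lay a median of 85 bp from the midpoint and GATA matches 78 bp.

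The bases beside the core differed between the regions and the DNA around them. Among the 2611 AP-1 cores of the asynchronous regions, 8.77% (7.71 to 9.92) belonged to the extended string, against 3.98% (3.24 to 4.83) of 2464 cores in the windows 5 kb away, a difference of 4.79 percentage points (3.46 to 6.14). Against the windows around these regions alone, with 362 cores, the difference was 3.25 points (0.213 to 5.48). A thymine directly before the core on either strand was found in 24.0% of the cores of these regions and in 39.0% of the cores 5 kb away, a difference of -15.1 points (-17.6 to -12.5). An adenine before the core on both strands was more frequent, at 9.73% against 4.95%. Beyond the 7 letters of the core, the rule could set the flanking bases where the CTG of a dropped composite fell beside a core and where the required GATA string did. A GATA match abutted or overlapped 28 of the 2611 cores (1.07%), of which 1 had the adenines, 6 a thymine and 1 the extended string. At 80 cores (3.06%) a GATA match covered at least 1 of the 3 bases beside the core. Of these, 9 had the adenines, 19 a thymine and 4 the extended string. With composite and repeat peaks kept, the extended string was found in 8.16% (7.25 to 9.16) and the thymine in 24.95% (23.5 to 26.5) of 3258 cores.

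Distal GATA2 peaks that held the core but no GATA string were further from the surrounding DNA in the extended string and in the thymine. Their 287 cores, in 259 peaks, had the extended string in 13.2% and a flanking thymine in 13.6%. The regions with both strings differed from them by -4.47 points (-9.00 to -0.844) for the first and by 10.4 points (5.66 to 14.3) for the second. For these 2 features the regions with both strings thus lay between the peaks with AP-1 alone and the surrounding DNA, with every interval of a difference excluding 0. For adenine before the core the difference from the peaks with AP-1 alone was -3.16 points (-7.67 to 0.433), which is not separated from 0. The palindrome of 13 letters, with TGC on both sides, was found in 3 of 2611 cores.

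With the TGC allowed to reach past the edge of the peak, as for the cores above, the extended string was in 224 asynchronous regions (9.42%, 8.28 to 10.7) and in 6 of the 107 mitotic ones (5.61%, 2.09 to 11.8). Near EED, the gene of a core subunit of the polycomb repressive complex that methylates histone H3, 3 of 5 regions held it. Of the regions with the extended string, 10 were bookmarked (4.46%) against 7.01% of those without it, a difference of -2.55 points (-4.87 to 1.15), which is not separated from 0. The bookmarked ones included regions near PODXL, the gene of podocalyxin, FGFR1, the gene of a fibroblast growth factor receptor, RGS6, the gene of a regulator of G protein signalling, and RESF1, the gene of a retroelement silencing factor. The extended core itself lay inside the mitotic interval in 6 of these 10 regions, FGFR1 and RESF1 included, and outside it in the others, PODXL and RGS6 included. At RESF1, shown here since it is a bookmarked region with both strings close together, the core is read as the extended string on the opposite strand, 16 bp from the GATA match. It was named after its values were seen.
RESF1, chr12:32000508-32000560: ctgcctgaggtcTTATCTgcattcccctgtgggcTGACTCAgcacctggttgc

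The arrangement of the strings was loose. The median gap was 43 bp (40 to 46) with quartiles of 20 and 92 bp, and the largest was 513 bp. The strings were 0 to 10 bp apart in 320 regions (13.5%) and overlapped by 1 base in 14. Over all pairs of a core and its nearest GATA match at 0 to 100 bp, the most frequent gap, 34 bp, was found 48 times, 1.65 times the mean of 29.0 per gap. For the E-box in distal GATA peaks the most frequent gap in this range, 14 bp, reached 2.40 times its mean, although the composite spacings had been removed. Outside this range, 165 E-box pairs overlapped by 2 bases. For the RUNX string the ratio was 2.05, at 3 and at 5 bp alike, and for the ETS string 2.88, at 77 bp. Whether these ratios differ from that of AP-1 was not tested. The nearest GATA match of a region was AGATAA in 46.8%, TGATAA in 24.9%, AGATAG in 17.2% and TGATAG in 11.1%. Over all GATA matches of the other distal GATA peaks the shares were close to these, at 46.0%, 25.2%, 18.1% and 10.7% in the same order.

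Most regions held a single core. There were 2167 asynchronous regions with 1 core (91.1%), 193 with 2, 16 with 3, 1 with 4 and 1 with 6. The region with 6 cores, 50306 bp upstream of ANKRD10, is a tandem array, and its sequence is printed because the cores recur in a repeated unit. The region with 4 cores lay 87481 bp upstream of TET2, the gene of an enzyme of DNA demethylation that is often mutated in myeloid disease, and was 614 bp wide. Regions near DUSP10 and TUBB2A were among those with 3. Of the 211 regions with 2 or more cores, 18 were bookmarked (8.53%) against 6.60% of those with 1, a difference of 1.93 points (-1.33 to 6.58).
ANKRD10, chr13:110965374-110965507: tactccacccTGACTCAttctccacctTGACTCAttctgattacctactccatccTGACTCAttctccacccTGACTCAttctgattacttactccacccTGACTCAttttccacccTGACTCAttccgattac

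Compared with the 15288 other distal GATA peaks, the regions were wider, with a median of 437.5 bp (425 to 447) against 367 bp (364 to 371). A wider interval has more room for any string, so the comparisons of strings below are also given within 20 bins of width. Regions had 2 or more GATA matches in 69.4%, against 69.9% of the others, and within width bins the difference was -5.72 points (-7.61 to -3.83). Strings of other factors differed by less than their intervals at equal width. The RUNX string differed by -0.410 points (-1.95 to 1.13), the ETS string by -1.15 (-2.71 to 0.414) and the E-box by 0.593 (-1.29 to 2.47). The TEAD string differed by 0.338 (-1.54 to 2.22). Without the bins, the E-box differed by 3.51 points (1.65 to 5.44) and the TEAD string by 3.97 (2.09 to 5.92). Unbinned differences were 1.20 (-0.302 to 2.80) for the RUNX string and 0.455 (-1.06 to 2.07) for the ETS string.

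The regions were spread over introns and intergenic DNA. In introns lay 55.5%, in exons 3.11% and between genes 41.4%, and the intergenic share was 2.77 points above that of the other distal GATA peaks (0.658 to 4.91). The median distance to the nearest TSS was 14782.5 bp (13694 to 15728) against 13349.5 bp (12954 to 13708). At the edges of the rule, the region just inside 1 kb was in an intron of ANO4 at 1000 bp and the peak just outside was near MPPE1 at 999 bp. At the far edge the region nearest CPEB2 was at 99710 bp and the excluded peak nearest PRDM1 at 100365 bp.

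Bookmarking of the regions was infrequent. Of the 2378 asynchronous regions, 161 shared a base with a mitotic peak, 6.77% (5.79 to 7.86), where the background was 5.04% of all asynchronous peaks and 3.92% of the other distal GATA peaks. The difference from the other distal GATA peaks was 2.85 points (1.85 to 3.97). Within bins of width it was 0.445 points (-0.547 to 1.44), so at equal width a difference was not detectable. When strings were searched only in 400 bp around each midpoint, the unstratified difference was 0.0724 points (-0.765 to 1.04). Of the 259 distal peaks with the core and no GATA string, 4 were bookmarked (1.54%, 0.422 to 3.91). Such peaks were narrower (median 310 bp) than the regions (437.5 bp) and the other distal GATA peaks (367 bp). Whether their share differs at equal width was not tested.

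The share was higher in wider regions. Bookmarked regions had a median width of 741 bp, and the regions that were not bookmarked 419 bp. From the narrowest to the widest quintile of distal GATA peaks, the regions were bookmarked in 0 of 310 (0 to 1.18%), 0 of 379 (0 to 0.969%), 5 of 441 (1.13%), 29 of 531 (5.46%) and 127 of 717 (17.7%). Taken as 3 counts of the total, the limits that these counts of 0 allow are 0.968% and 0.792%. The other distal GATA peaks gave 0.0922%, 0.320%, 1.19%, 3.81% and 15.5% in the same quintiles. In every quintile the intervals of both groups overlapped. Peaks with the RUNX, ETS, E-box or TEAD string were also bookmarked more often than peaks without it, by 2.66, 2.63, 3.38 and 3.13 points, and within width bins by 0.671, 0.619, 0.779 and -0.199 points, with all intervals including 0.

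The widest region of all, 2210 bp in intron 1 of SNAP23, a gene of vesicle fusion, was not bookmarked, nor were the regions of 1423 bp at LRRC8C, 1331 bp near ATP5MG and 1314 bp at BCAR3. The other 3 of the 7 widest regions were bookmarked, with 1835 bp nearest TENT5C, 1423 bp nearest ZMAT4 and 1390 bp nearest EXOC1L, named here after their values were seen. Among the regions, 2 or more GATA matches went with 5.60 points more bookmarking (3.66 to 7.35) than 1 match, and within width bins with -0.552 points (-2.26 to 1.15). Gaps of 0 to 10 bp had 7.50% bookmarked and gaps over 100 bp 9.96%, with 5.21%, 5.35% and 6.02% in the bins between. The regions with gaps over 100 bp were also wider, with a median of 511 bp. The interval of this last bin (7.55 to 12.8) lay above that of gaps of 21 to 50 bp (3.79 to 7.29) and overlapped those of the other bins, and the part of width in this was not tested by gap bin.

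The mitotic peaks were narrower than their asynchronous partners in all 163 pairs, with medians of 320 and 743 bp. This left the AP-1 core outside the mitotic interval in many pairs. Of 179 cores in the 161 bookmarked regions, 107 (59.8%, 52.2 to 67.0) lay wholly inside the mitotic interval, and of 549 GATA matches 372 (67.8%, 63.7 to 71.7) did. The difference between GATA and AP-1 was 7.98 points (-0.00772 to 16.2), and mitotic peaks covered 45.7% of the bases of these regions. Almost every bookmarked region, 158 of 161, kept a GATA match inside the mitotic interval, and 101 (62.7%) kept a core. Bookmarked regions held a mean of 3.41 GATA matches and 1.11 cores, so these shares per region are not on the same footing. Inside the mitotic interval both strings were thus more frequent than the share of bases covered, and the shares of the 2 strings differed by an amount whose interval just includes 0.

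The 107 mitotic regions almost all fell on asynchronous peaks. An asynchronous region with both strings lay under 101 of them and another asynchronous peak under 5, of which 3 had a composite and 1 a repeat in the wider interval and 1 was outside the distance limits. The single mitotic region with no asynchronous peak was 282 bp wide, 3000 bp upstream of SND1, the gene of a nuclease of RNA silencing complexes. Its strings are 14 bp apart and its sequence is printed because it is the exception, chosen after its values were seen.
SND1, chr7:127649134-127649184: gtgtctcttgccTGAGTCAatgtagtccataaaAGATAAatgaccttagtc

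The widest mitotic regions were 976 bp (nearest CDC42BPA), 876 bp (ASRGL1), 761 bp (UGT2B15), 758 bp (STX3), 720 bp (ANKRD44), 635 bp (HECW2), 584 bp (HPS1) and 582 bp (MYO3B). They held 1 core each and between 1 (ANKRD44) and 8 (HECW2) GATA matches. The gap was 6 bp at HECW2, an intronic region 1738 bp from the nearest TSS, and 36 bp at ANKRD44. The core of several regions stood in DNA with near copies elsewhere in the genome.

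Such copies were counted for all regions, a step added after values were seen, with 10 bases on each side of a core compared with those of all 462324 cores of the reference and up to 3 mismatches allowed. Annotated repeats were not used here.

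At least 1 other copy of the surroundings was found for every core of 551 asynchronous regions (23.2%, 21.5 to 24.9), and at least 10 for 268 (11.3%, 10.0 to 12.6). Windows around these regions had more, with 10 or more copies for 76 of 338 windows that held a core (22.5%, 18.1 to 27.3). Bookmarked regions had 10 or more copies in 12.4% (7.76 to 18.5) and the others in 11.2% (9.90 to 12.6). Copied surroundings were thus less frequent in these regions than around them, and the shares of bookmarked and other regions overlapped within their intervals.

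Linked by such copies, 241 regions (10.1%) fell into 30 groups. The largest group had 116 regions on 21 chromosomes, of which 9 were bookmarked (7.76%, 3.61 to 14.2). The group of the ASRGL1, MYO3B and UGT2B15 regions had 26 regions on 16 chromosomes, among them ones near ABO, ARG1 and KLHL6, and 9 were bookmarked (34.6%, 17.2 to 55.7). Its regions were wide, with a median of 879 bp, and 24 of them were in the widest quintile, where 17.7% of all regions were bookmarked. Their gap had a median of 182 bp, with that value in 9 regions. The group was picked after its values were seen and its share is a description. Reads were kept by the authors only where they mapped uniquely, and how this acts on copied DNA was not tested.

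By gene, the asynchronous regions were nearest to 1918 genes, of which 1568 had 1 region and 81 had 3 or more. CLEC16A, a gene of endosomal traffic, had the most, with 6 regions within the gene, between 198 and 646 bp wide, none of them bookmarked. TNIK, the gene of a kinase that acts with TCF4 in WNT signalling, had 5, ANXA3, the gene of annexin A3, had 5, and EED had 5. The distal GATA peaks nearest these genes, with or without the core, numbered 15 at CLEC16A, 20 at TNIK, 13 at ANXA3 and 15 at EED. Over all distal GATA peaks 13.5% held the core, and these genes were picked by their count of regions. There were 20 genes with 4 regions, among them SH3BP5, PODXL, MYO3B and ZMYND8, and 8 of the 20 had a bookmarked region, where 8.24% of all 1918 genes had one. A gene with more regions has more chances of a bookmarked one, so these shares are not on the same footing. Distal GATA peaks with or without the core numbered 6 each at SH3BP5 and ZMYND8, 13 at PODXL and 15 at MYO3B. The ANXA3 regions lay downstream of the gene's start between chr4:78610390 and chr4:78672258, and 1 of them was bookmarked. Of the genes with a bookmarked region, 158 in all, CPEB4, a regulator of translation, MRPS22, of the mitochondrial ribosome, and RESF1 had 2 each. The mitotic regions were nearest to 106 genes.

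Genes of the AP-1 and NF-E2 systems and of blood development were looked up in 4 lists of 88 genes, and 20 of them had 29 asynchronous regions. The AP-1, CNC and small MAF genes had 6 regions at 4 of 23 genes, namely NFE2L2, the gene of NRF2, BACH2, JDP2 and JUND. Targets of NF-E2, NRF2 and BACH1 had 9 regions at 7 of 27 genes, among them HBE1, SLC7A11, the gene of a cystine transporter, TXNRD1, and FTH1, the gene of ferritin heavy chain. The extended string was in 3 of these 9 regions, and in none of those at SLC7A11, TXNRD1 and FTH1. In this list 9 of the 22 distal GATA peaks held the core (40.9%), where the share over all distal GATA peaks was 13.5%. The share was 14.3% (6 of 42) for the AP-1, CNC and small MAF genes, 10.9% (10 of 92) for haematopoietic regulators, 19.0% (4 of 21) for megakaryocyte and platelet genes and 16.4% over all 4 lists. The lists were chosen with earlier results known, and these shares are descriptions. Haematopoietic regulators had 10 regions at 6 of 20 genes, with 3 each at RUNX1 and TEAD1 and others at MYB, ERG, MEIS1 and GFI1B. Megakaryocyte and platelet genes had 4 regions at 3 of 18 genes, including 2 at TBXAS1, the gene of thromboxane synthase.

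None of the 29 regions was bookmarked, which allows a share of up to 10.3% by the limit of 3 counts (0 to 11.9% by the exact interval), and the 6.77% of all regions lies within both. The 177 distal GATA peaks of the same genes included 13 bookmarked ones (7.34%, 3.97 to 12.2), 9 of them among the 92 peaks at haematopoietic regulators (9.78%, 4.57 to 17.8), where the background was 4.31% of all distal GATA peaks. By chromosome, no region was bookmarked among 58 on chromosome 13 (0 to 6.16%) and 28 on chromosome 21 (0 to 12.3%), and 1 of 70 was on chromosome X. The highest share was 11.3% of 71 on chromosome 15 (4.99 to 21.0).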

How the data were processed

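GATA2 ChIP-seq libraries of asynchronous and mitotic K562 cells were used, 1 each, grouped by their labels. Per the authors' methods and the submitters' processing notes, reads were aligned to hg38 with BWA 0.7.12, uniquely mapped reads were kept, peaks were called per condition with MACS2 2.1.0 and Genrich 0.6.1, and peaks on the ENCODE blacklist were removed. How both callers and the inputs were combined is not given in the sources used here. The deposited values are peak positions in bp, with no score or depth.

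Sequences were read from GRCh38 and TSS from GENCODE release 44. Matches were counted on both strands without overlap. Shares have exact binomial intervals, with the limit of 3 counts of the total given besides for some shares of 0, differences Newcombe intervals, width-stratified differences Mantel-Haenszel estimates over 20 bins with Sato's variance, densities exact Poisson intervals and medians order-statistic intervals. Members, gene lists, named genes (regions of the 4 lists, the widest, those with the shortest gap or most cores, genes with most regions, edges of the distance limits) and alternatives were chosen with earlier results of these data known. Steps were tested on simulated data. The software was matplotlib 3.10.9, pysam 0.24.0, scipy 1.17.1, pandas 2.3.3 and numpy 2.4.6 under Python 3.11.15. Some regions and sequences are not reported here.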

Additional observations from a re-analysis of the deposited data

How the results depend on the processing

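No paired analysis was possible because each condition has 1 GATA2 library and no result comes from a test between samples. Under 10 alternatives, of which 1 was added after seeing the data, 59 of 68 values stayed within the interval of the reported value, or within 1.5 times it for counts, and none changed sign against an interval that excluded 0. Leaving out chromosome Y removed no region and left all 8 values identical, so these are not counted. Requiring a reciprocal overlap of 50% gave 2.78% of regions bookmarked and a difference of 1.20 points from the other distal GATA peaks. Searching 400 bp around the midpoint gave 4.50% and 0.0724 points. Keeping only the wider asynchronous peaks, from the list's median width up, gave 1444 regions, 11.1% bookmarked and a median gap of 50 bp. With AGATAA as the GATA string the median gap was 67 bp, since fewer matches are available. With a core flanked by neither thymine before nor adenine after it, 11.0% of regions held the extended string. Leaving out regions with 10 or more copies of the core's surroundings, the added alternative, moved none of the 8 results it was tried on, and the width-stratified difference stayed within its reported interval under all alternatives, with -0.135 points where composite and repeat peaks were kept. Depth is unknown and each condition has 1 library, so shares describe these lists. Whether a narrow site was bound in mitosis below the limit of calling was not tested.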
